A study of Morus alba with 4 samples.

Results

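Predicted non-coding RNAs with a well-measured level were followed in leaves of the mulberry genotype Dudia white (Morus alba). They are the transcript rows that carry a RefSeq predicted non-coding accession (identifiers that begin with rna-XR), have a normalized value of at least 100 in both libraries of at least 1 treatment, and have a mean over the 4 libraries under 1000000. Of 2245 such rows among 37553 rows in all, 427 met this rule, or 19.0%. Rows with the same 4 values were counted once, which left 326 members. The members were chosen by their measured levels, so the levels are a description. Every member also passed the filter of the test, which asks for 10 or more in 2 or more libraries.

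The plants were raised for 3 months as bushes in pots of about 30 kg. The watered (control) group was then held at 100% of field capacity, the water a soil keeps after draining, and the drought group at 40%, each for 14 days. Each group has 2 libraries of mature leaf, labelled mesophyll, which the series calls biological replicates. Both groups are of the same genotype, and the labels do not say whether a library is 1 plant or a pool. No identifier is paired with a gene name in the files, so the tissue label could not be checked against leaf markers, and no member has a name, a function, a length, a position or a sequence here.

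RefSeq accessions of this kind include those of transcript models that an annotation pipeline predicts from aligned RNA and for which it finds no convincing protein. The class includes long non-coding RNAs from loci of their own and also non-coding splice variants of protein-coding genes, which share exons with the mRNA. It is not limited to these kinds, and the kind of each member is not given here. Plant long non-coding RNAs are known to act on chromatin and transcription, as COOLAIR does at the flowering gene FLC in Arabidopsis, and to bind proteins or small RNAs. In Arabidopsis the long non-coding RNA DRIR is induced by drought and raises drought tolerance. Non-coding splice variants of a coding gene are often unstable and may carry no function.

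The deposited values are whole numbers. How they were normalized is not stated, and they were treated as read counts times 1 factor per library, rounded. Judged by the spacing of the values, 1 read added between 0.84 and 1.22 to a value, by library, and a value of 100 represented 81.8 to 119 reads. Counting error alone is then 9.17% to 11.1% of such a value. A read could be counted in several rows, and lengths are not given, so a higher value of 1 row than of another does not show more molecules.

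The members' levels were mostly modest and similar in the 4 libraries. Taking libraries 1 and 2 of a treatment in turn, the median value was 305.5 and 300.5 when watered against 300 and 279.5 under drought. Over the 4 libraries the mean per member had a median of 292, with a 10th percentile of 129 and a 90th percentile of 983. By mean, 99 members lay under 200, 143 from 200 to under 500, 52 from 500 to under 1000, 29 from 1000 to under 10000 and 3 above that. Predicted mRNA rows (rna-XM) that meet the same level rule numbered 9385 sets of values, with a median mean of 238.

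A single member carried most of the summed value. It had 1085600 and 1147780 in the watered against 892028 and 402441 in the drought libraries, and made up 72.0% to 82.1% of the members' sum. Both drought libraries were below both watered ones, and drought library 2 was far below drought library 1. The other 325 members together summed to 275742 and 250654 in the watered against 216921 and 156568 in the drought libraries. The 294 members with means under 1000 summed to 101136, 98588, 95175 and 87669 in the same order, so most of the gap in the sum lay in the abundant members.

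At the edges of the rule the values ran on without a break at the level of 100 and with a wide gap at the top. The pair of members just inside the level of 100 had 104 and 100 in the watered against 46 and 39 in the drought libraries, and 101 and 121 against 79 and 67. The pair of rows just outside had 99 and 120 against 47 and 66, and 77 and 87 against 114 and 99. Below the member of the highest mean, the next had a mean of 32620. The 2 non-coding rows nearest above the limit had 4801325 and 4554775 against 4286225 and 1886442, and 6932739 and 7324833 against 8650325 and 1702953. In both of these rows drought library 2 was the lowest.

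Many members could not be told apart from mRNAs by their reads. Of the 326 sets of values, 98 were also held, value for value, by at least 1 predicted mRNA row, 10 by an assembled or gene-identifier row but no mRNA row, and 218 by no row of another class. Rows with the same 4 values were taken to count the same reads, so in the first case the value cannot be given to the non-coding or to the coding model. Within the class, 63 sets were held by more than 1 member row, 164 rows in all, with up to 8 rows for a set. A further 12 groups, with 24 members, had 4 values within 2% or 2 units of each other. Sharing with an mRNA row was less frequent among abundant members, from 32.0% of members with means under 1000 to 12.5%, or 4 of 32, of those at 1000 or more.

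**Figure D1:**
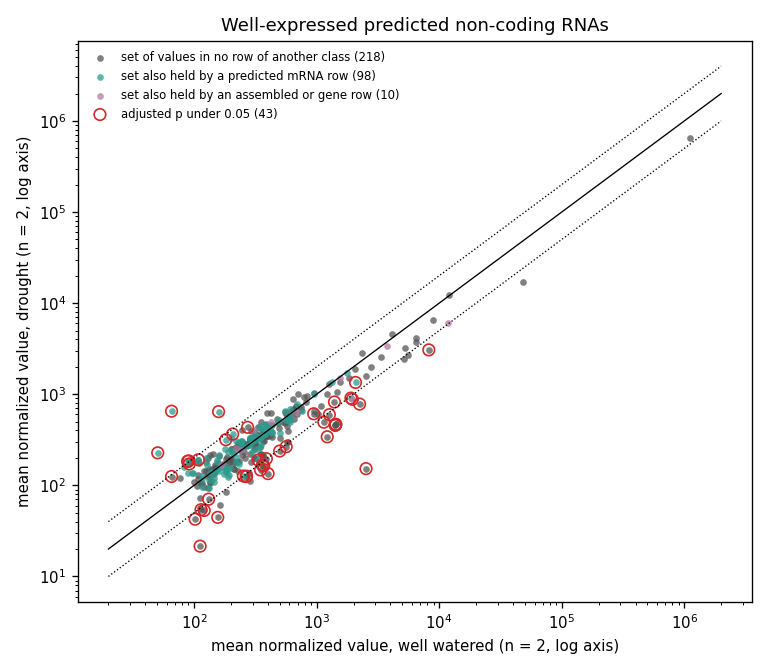
Mean normalized value of each of the 326 members in the drought libraries (vertical, log axis) against the watered libraries (horizontal, log axis), n = 2 each; the solid line marks equal values and the dotted lines 2-fold differences. Colours show which other class holds the same 4 values, and red rings the 43 members at an adjusted p under 0.05; most points above a mean of 1000 lie below the line of equal values.

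More of the well-expressed non-coding RNAs were called lower in drought than higher, though not in every setting given below. In a limma fit over all 28254 tested rows with Benjamini-Hochberg adjustment, 11 members were higher and 32 lower in drought at an adjusted p under 0.05, 3.37% and 9.82% of the 326. Among all tested rows, with each set of values once, 4.49% were called higher and 5.46% lower. Among the predicted mRNAs of the same level rule 5.80% were called higher and 7.26% lower, and 6.46% and 7.33% once they were weighted to the members' spread over the level bands. Without adjustment, 29 higher and 68 lower members had a p under 0.05. The median log2 fold change (drought over watered, with 1 added to each value before the logarithm) was -0.06 over the members and -0.01 over both the predicted mRNAs and all tested rows. The difference between the classes was not tested, since rows that share reads are not independent. The calls depended on the scale: 3 higher and 18 lower were called with library totals as the scale, and 5 and 38 with the sums of predicted mRNAs. The totals were 2910603473 to 4773539793 and the mRNA sums 11174504 to 15683648, so rows other than predicted mRNAs set the first scale. Fits without 1 library have 1 residual degree of freedom, too few for their calls to show dependence on a library. In these fits the members' median log2 fold change ran from -0.08 to -0.03. No trend in the spread left 2 and 1 calls, no filter on low values 4 and 5, and a test against 1.5-fold 3 and 2. In whole leaf tissue, fewer cells of a type and less RNA per cell cannot be told apart.

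The groups did not overlap in 197 members. Both drought libraries were below both watered ones in 117, or 35.9%, where 27.2% of all tested sets and 30.4% of the predicted mRNAs of this level were so placed. They were above both in 80, or 24.5%, against 26.0% of all tested sets and 29.0% of the predicted mRNAs.

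The rule lets a member in through 1 treatment alone, and most of such members differ between the treatments by the way they were chosen. Through the watered libraries only came 24 members, of which 9 were called lower, and through the drought libraries only 19, of which 7 were called higher, or 37.5% and 36.8%. Predicted mRNAs let in the same way were called in 29.7% of 887 and 26.9% of 591. These counts follow in part from the rule. The 283 members with at least 100 in all 4 libraries included 4 called higher and 23 called lower. Among the 7907 predicted mRNAs with at least 100 in all 4 libraries, 385 were called higher and 418 lower, or 4.87% and 5.29%, against 1.41% and 8.13% of the 283. Members picked by a mean of at least 100, blind to treatment, numbered 322, of which 10 were called higher and 28 lower.

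The largest rise was that of rna-XR_002903575.1, with 68 and 63 in the watered against 598 and 705 in the drought libraries. The groups lay far apart and the libraries within each were close. The difference was 9.79-fold, a log2 change of 3.29 (SE 0.18, limma adjusted p = 8.04e-05). The same 4 values were held by 4 non-coding member rows and by a predicted mRNA row, so the rise cannot be given to the non-coding or to the coding model.

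The next was rna-XR_002903018.1, with 37 and 64 in the watered against 208 and 247 in the drought libraries. Its watered libraries differed from each other by a larger ratio than its drought libraries did, but the groups stayed apart, and drought was 4.58-fold higher (SE of the log2 change 0.29, limma adjusted p = 0.00310, and 0.0568 with no trend in the spread). Its values were also held by a predicted mRNA row. The third rise went from 171 and 146 to 646 and 643, a 4.06-fold difference with nearly equal drought libraries, and likewise shared its values with a predicted mRNA row.

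Beyond these 3 the rises were small, and with library totals as the scale these 3 were the only members called higher. The other 8 called members had log2 fold changes of 0.66 to 1.04. A pair of neighbours in the ranking, with 81 and 96 against 164 and 203 and with 83 and 98 against 166 and 205, were near-identical and count as 1 observation. Of the 11 called rises, 7 shared all 4 values with a predicted mRNA row, and 4 shared them with no row of another class. The latter 4 had 281 and 266 against 459 and 408, 103 and 80 against 173 and 171, 70 and 61 against 139 and 111, and the 83 and 98 against 166 and 205 just given. In the last of these the reads are still nearly those of a shared set, because its near-identical neighbour was also held by a predicted mRNA row.

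The largest fall was that of rna-XR_002903662.1, with 3569 and 1490 in the watered against 198 and 107 in the drought libraries. The watered libraries differed 2.40-fold from each other, yet the lower of them was above both drought libraries by a wide margin. The log2 change was -3.98 (SE 0.41, limma adjusted p = 0.00112), and no row of another class held these values. With no trend in the spread it missed the threshold (adjusted p = 0.0531). Without watered library 1 the log2 fold change was -3.35, and without watered library 2 it was -4.61.

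The second fall, rna-XR_002901784.1, was of a row at a low level, with 104 and 120 in the watered against 20 and 23 in the drought libraries. Libraries of a treatment were close and the groups were apart, at a log2 change of -2.33 (SE 0.29, limma adjusted p = 0.00228). It entered the set through the watered libraries only. It also shared its values with no row of another class.

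The falls that followed had a common form, with drought library 1 between the watered pair and drought library 2. The third fall had 1463 and 979 in the watered libraries, then 523 and 159 in drought libraries 1 and 2. The fourth had 185 and 127, then 65 and 24. The fifth to the eighth were near copies of each other, at 1684 and 1161, then 657 and 257 for the fifth, and 1692 and 1175, then 673 and 259 for the seventh. These 4 identifiers fall into 2 pairs with adjacent numbers, so they are not 4 separate observations. The ninth had 461 and 342, then 188 and 81. The tenth, the most abundant member called, had 8864 and 7592, then 4593 and 1546, a log2 change of -1.62 (SE 0.41, limma adjusted p = 0.0456). It missed the threshold with identical rows kept once in the fit (adjusted p = 0.0543). The third to the tenth all missed it with no filter on low values (0.103 to 0.156 after adjustment) and with no trend in the spread (0.151 to 0.214), and all passed it with either other scale. Over these 8 the log2 changes ran from -2.05 to -1.62, from -2.90 to -2.28 without drought library 1, and from -1.23 to -0.84 without drought library 2.

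**Figure D2:**
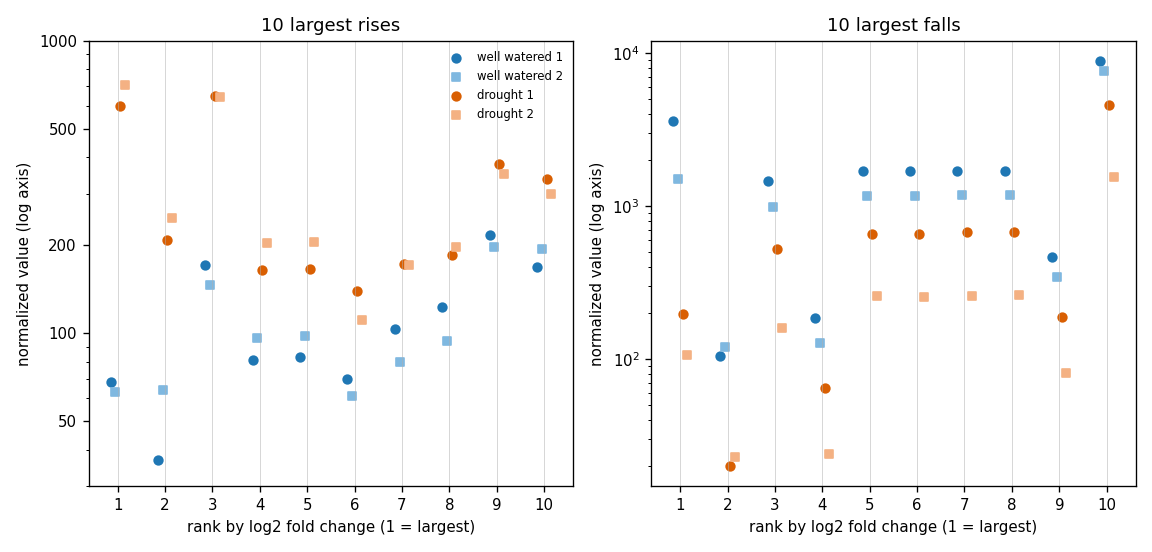
Normalized value (log axis) in each of the 4 libraries for the members with the 10 largest called rises (left) and the 10 largest called falls (right), ordered by log2 fold change. In the rises the 2 drought libraries lie close together, while in 9 of the 10 falls drought library 2 (light orange squares) lies below drought library 1 (dark orange circles).

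Over all 32 called falls, log2 fold changes ran from -3.98 to -0.63, and 26 were at least 2-fold. Of the 32, 27 shared their values with no row of another class, 4 with a predicted mRNA row and 1 with an assembled row. With near-identical members counted once there were 29. That count still keeps the fifth to the eighth falls as separate pairs, since the pairs differ by more than the limit set for near-identical members. Drought library 2 was below drought library 1 in 27 of the 32, and drought library 1 was at least 1.5 times drought library 2 in 19, with a median ratio of 1.83. In the 11 called rises the median ratio was 1.005, and it was at least 1.5 in 0 of them. The part of this gap between the drought libraries in the calls was not tested.

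Among the falls that did not show this gap were both members with small steps and members well apart. One had 330 and 338 in the watered against 185 and 194 in the drought libraries, a log2 change of -0.81 (SE 0.16, limma adjusted p = 0.0163). Another had 235 and 270 against 117 and 136. Both shared their values with a predicted mRNA row. One more, with 896 and 997 against 634 and 587, shared them with no row of another class.

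Called falls made up a larger share of the members above a mean of 500 than below it, and no member above 500 was called higher in this fit. In the 4 bands from under 200 to under 10000, 9 of 99, 8 of 143, 8 of 52 and 7 of 29 members were called lower, or 9.09%, 5.59%, 15.4% and 24.1%. Predicted mRNAs in the same bands were called lower in 7.28%, 6.48%, 8.36% and 9.85%. The 8 falls in the band of 500 to under 1000 include the 4 near copies described above, which are not separate observations. The gap between 15.4% and 8.36% therefore rests in part on them. The 9 falls under 200 also include a near-identical pair. Shares by band with near copies merged were not computed. Called higher were 6 of 99, 5 of 143, 0 of 52 and 0 of 29 members, against 4.17%, 5.36%, 7.89% and 14.6% of predicted mRNAs. None of the 3 members above these bands was called. In the bands of 500 to under 1000 and 1000 to under 10000, where limma called no member higher, 4 and 0 members reached an unadjusted p under 0.05 in that direction.

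**Figure D3:**
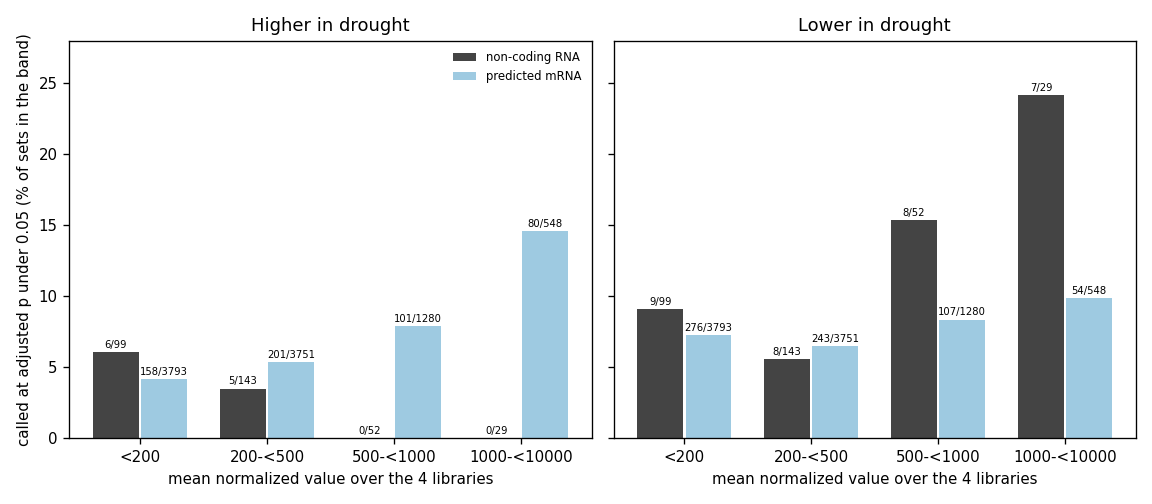
Percent of members (dark) and of predicted mRNAs that meet the same level rule (light blue) that were called higher (left) or lower (right) in drought at an adjusted p under 0.05, by band of the mean normalized value; the labels on the bars give called sets over sets in the band. Called falls reached 24.1% of members and 9.85% of mRNAs in the band of 1000 to under 10000, where 0 members and 14.6% of mRNAs were called higher. Near copies are counted separately, and several of the members called lower in the band of 500 to under 1000 are near copies of each other.

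The 32 members with means of 1000 or more were mostly lower in drought. The fitted change was negative in 27 of the 32, with a median log2 fold change of -0.57 and a range of -3.98 to 0.26. Several of the 32 have adjacent identifier numbers, and positions are not given, so the 32 may not all be separate observations. Both drought libraries were below both watered ones in 20, or 62.5%, and above both in 1. Of 561 predicted mRNAs at this level, 26.9% were lower and 39.0% higher in this sense, and their median log2 fold change was 0.08. Limma called 7 of the 32 lower, or 21.9%, and 0 higher, against 55 lower and 84 higher of those 561 mRNAs, and a further 12 were lower at an unadjusted p under 0.05. No member of this group was higher at an unadjusted p under 0.05, and 0 were called higher with library totals or the sums of predicted mRNAs as the scale, where 8 and 12 were called lower. Of the 561 mRNAs, 21 were then called higher and 19 lower with library totals, and 60 and 37 with the sums of predicted mRNAs.

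These abundant members also differed between the drought libraries. Drought library 1 was a median of 1.46 times drought library 2 over the 32, with quartiles of 1.20 and 2.01, and at least 2 times in 8. Over the 561 predicted mRNAs of this level the median was 1.09. In the watered libraries the members' median ratio was 1.04. Drought library 2 was the lowest of the 4 libraries in 27 of the 32, or 84.4%, against 35.7% of those mRNAs. The scale of the libraries bears on this: with library totals as the scale the members' median ratio became 0.889 and the mRNAs' 0.664, and drought library 2 was the lowest in 13 of the 32, or 40.6%, against 2.67% of the mRNAs. With the sums of predicted mRNAs as the scale the ratios were 1.04 and 0.776, and drought library 2 was the lowest in 17 of the 32, or 53.1%, against 5.70% of the mRNAs. The members' median stayed 1.34 times that of the mRNAs under either scale, since a scale multiplies both alike. Without drought library 2 the fitted change was still negative in 25 of the 32, with a median of -0.24 in place of -0.57.

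The second most abundant member had 56101 and 40660 in the watered libraries, then 25970 and 7750 in drought libraries 1 and 2. The groups were apart, but the drought libraries differed so much that its log2 change of -1.75 missed the threshold (SE 0.47, limma adjusted p = 0.0542). It passed the threshold with a pseudocount of 5 (adjusted p = 0.0467) and with either other scale. Its log2 change was -2.62 without drought library 1 and -0.88 without drought library 2. The third had 13114 and 11035 against 12309 and 12056, a log2 change of 0.02 (SE 0.12), and its groups overlapped. The fourth had 12509 and 10927, then 9444 and 2526, and the fifth 7936 and 9924, then 7688 and 5216. In each of the last 2 both drought libraries were below the watered ones and neither passed the threshold in the fit described. The fourth, with a log2 change of -1.26, passed it with library totals (adjusted p = 0.00736) and with the sums of predicted mRNAs (adjusted p = 2.14e-05) as the scale, and its change was -0.31 without drought library 2 and -2.21 without drought library 1. The member of the highest mean, given above, had a log2 change of -0.90 (SE 0.35, limma adjusted p = 0.168), and it was called lower with either other scale. Its limma adjusted p was 0.501 with rows of means of 1000000 or more left out, and 0.323 with no trend in the spread. Its log2 change was -0.32 without drought library 2 and -1.47 without drought library 1.

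Not every abundant member was lower in drought. In 9 of the 32 the log2 fold change was smaller than 0.2 in size. One of them had 1283 and 1234 in the watered against 1368 and 1197 in the drought libraries, and another 1303 and 1373 against 1272 and 1460. The 1 member with both drought libraries above both watered ones had 2322 and 2376 against 3022 and 2615, a log2 change of 0.26 (SE 0.12, limma adjusted p = 0.230).

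**Figure D4:**
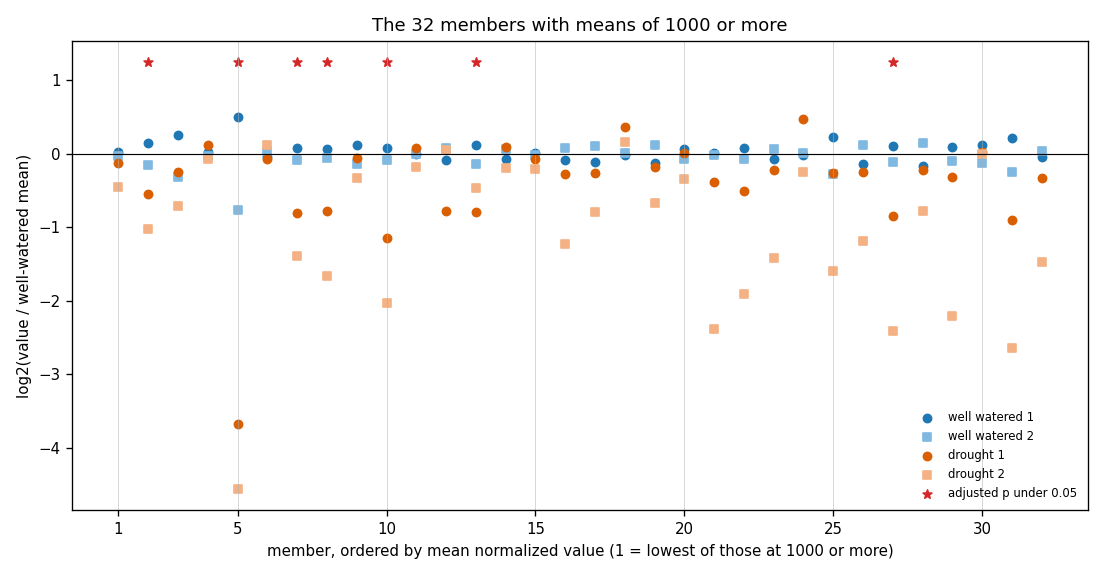
Log2 of the value over the watered mean (vertical) for the 32 members with means of 1000 or more, ordered by mean (horizontal), with a point for each library; stars mark the 7 called lower at an adjusted p under 0.05. The watered points stay mostly near 0, apart from the member of the largest fall, while drought library 2 is the lowest point in 27 of the 32.

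The calls were also counted by whether a member shared its values with an mRNA row. Of the 218 sets held by no row of another class, 4 were called higher and 27 lower, or 1.83% and 12.4%, and the median log2 fold change was -0.12. Of the 98 also held by a predicted mRNA row, 7 were called higher and 4 lower, or 7.14% and 4.08%, with a median of 0.03. Both drought libraries were below both watered ones in 41.7% of the first and 23.5% of the second, and above both in 19.7% and 34.7%. Of the predicted mRNAs of the same level rule, 30.4% were below and 29.0% above in this sense. The unshared members also held 24 of the 32 with means of 1000 or more. Within means under 1000 the calls were 4 higher and 23 lower of 194 unshared members, and 7 higher and 2 lower of 94 shared ones. Among all predicted mRNAs of the same level rule 5.80% were called higher and 7.26% lower, and among those with means under 1000 the shares were 5.21% and 7.09%. This split was made after the values were seen and was not tested, and an unshared member can still share part of its reads with another row.

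The drought pair also lay further apart than the watered pair over the members as a whole. The median absolute log2 difference between the libraries of a treatment was 0.16 for the watered and 0.24 for the drought pair. For predicted mRNAs of the same level rule it was 0.16 and 0.20. In the band under 200 the members and the mRNAs had 0.23 and 0.23 between the drought libraries, and in the band of 1000 to under 10000 they had 0.56 and 0.20. These differences are at the deposited scale. At means of 1000 or more, with library totals as the scale, the median drought ratio given above was 0.889 for members and 0.664 for mRNAs. With the sums of predicted mRNAs it was 1.04 and 0.776. With these sums the quartiles of the ratio were 0.857 and 1.43 for members and 0.690 and 0.881 for mRNAs. Members thus lay on both sides of 1, so a median near 1 does not show that their drought pair was close. The median absolute difference was not computed at these other scales.

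No member was confined to 1 treatment. By a limit of at least 100 in both libraries of a treatment and at most 5 in both of the other, 0 of 326 members were specific to drought or to the watered state, where 5 and 3 of 9385 predicted mRNAs were. The member nearest to this was the second fall, with 20 and 23 in drought. With at least 50 as the upper limit, outside the level rule, 1 non-coding row of 1146 sets, or 0.0873%, was specific to the watered state and 0 to drought. Of 18817 sets of predicted mRNAs, 7, or 0.0372%, were specific to the watered state and 9, or 0.0478%, to drought. The 1 non-coding row, singled out after its values were seen, had 55 and 64 in the watered against 0 and 1 in the drought libraries.

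A looser description gave few more. The lowest library of 1 treatment was at least 2 times the highest of the other in 3 members that were higher in drought, 0.920%, and 4 that were lower, 1.23%, against 1.86% and 2.80% of predicted mRNAs. The 3 were the largest rises given above, and the 4 were the first and second falls, a member with 2376 and 2106 against 1012 and 549, and one with 104 and 100 against 46 and 39. At least 4 times was reached by 1 and 2 of them, 0.307% and 0.613%, against 0.490% and 0.607% of predicted mRNAs. These counts use the values that chose the members and support nothing about them.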

How the data were processed

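Per the submitters' processing notes, reads came from bcl2fastq 2.20, were aligned with splicing by HISAT2 and counted by featureCounts. Their settings, the use of strand, the build and the annotation are unnamed (not given in the sources used here). The authors deposited 1 whole-number score per row and library, a normalized value per the file headers. The spacing of these scores gave what a read adds in each library, by a search checked on simulated data. Since steps below 1 merge counts, no count model was fitted.

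Groups follow the treatment label. Replicate numbers follow the order of deposition and pair nothing. All 28254 rows that reached 10 in 2 or more libraries were fitted with limma 3.58.1 (R 4.3.3) on log2(value + 1), with the prior spread trended on level and no covariate, which was tested on simulated data. Residual degrees of freedom were 2 and prior ones 5.96. P-values were adjusted over all tested rows (Benjamini-Hochberg, threshold 0.05). Sums over predicted-mRNA rows stood for 11346853 to 15587114 reads. P-values weigh the difference between the groups against the spread between these libraries, part of which the prior takes from other rows.

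The members, bands and comparisons were chosen with earlier results of these data known. Members named are the 10 largest called rises and falls, the 5 highest means, treatment-specific rows and rows at the limits of the rule. No table pairs identifiers with names, so identifiers are printed for the top 2 in each direction. Other members were picked as examples after their values were seen. Alternatives were other scales, filters, pseudocounts, spread estimates, row sets, limits and leaving out each library.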

Additional observations from a re-analysis of the deposited data

How the results depend on the processing

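The counts of called members, 11 higher and 32 lower, stayed within 1.5 times of these with pseudocounts of 0.5 and 5, identical rows kept once in the fit, rows with means of 1000000 or more left out, a level of 50, a mean of at least 100 and near-identical members counted once. They moved further in these settings: library totals as the scale gave 3 and 18, no filter on low values 4 and 5, no trend in the spread 2 and 1, and a minimum fold of 1.5, added after seeing the data, 3 and 2. The sums of predicted mRNAs as the scale gave 5 higher, with 38 lower. The higher count was 6 at a level of 200, 17 with every row counted and 4 among sets held by no row of another class. Without 1 library, 0 to 0 members were higher and 0 to 0 lower in fits with 1 residual degree of freedom, where 13 to 27 higher and 14 to 82 lower members had an unadjusted p under 0.05. Such fits take the spread of the group with 2 libraries for both.

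For the predicted mRNAs of the same level rule, 544 higher and 681 lower became 156 and 206 with library totals, 334 and 409 with their own sums as the scale, 294 and 369 with no filter, 83 and 135 with no trend, and 0 to 0 in both directions without 1 library. The cause of these changes was not tested. Well-watered-specific rows were 1 with limits of 50 and 5. Of the 43 called members, 14 were still called with library totals, 29 with mRNA sums, 9 with no filter and 3 with no trend. The third most abundant member, not called, had log2 fold changes of -0.11 to 0.14 without 1 library, negative without well-watered library 2, against 0.02. DESeq2 was left out because normalized values are no counts. No paired analysis was possible because nothing in the labels numbers the libraries. At the level of 100 that the rule asks for, counting error alone was 9.17% to 11.1% of a value, which limits what could be detected there.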
